A study of Mus musculus with 18 samples.

Results

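Transcripts of mitochondrial ribosomal proteins were followed in mouse brain cell cultures and in the small extracellular vesicles (sEVs) that these cultures release. They were all gene labels made of Mrpl or Mrps and a number, without pseudogenes and read-through labels, and there were 78 of them among 17714 gene labels. Their 498 isoforms held 49710 of 10234812 long reads. The 6 groups were sEVs and cells of primary mouse astrocytes, of primary mouse microglia and of primary mouse neurons, with 3 libraries each, and the labels name no treatment, genotype or age. The series asked whether mRNA is packaged into sEVs differently by cell type. Polyadenylated RNA was reverse transcribed, the cDNA was reamplified for 10 cycles and whole molecules were read on a PacBio instrument. Nothing in the labels states that the 3 libraries of a group came from different cultures, and a p-value here therefore covers the spread among these libraries alone, which may be technical.

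Mitochondria keep their own ribosome, the mitoribosome, which makes the few respiratory chain subunits that mitochondrial DNA encodes. Its rRNAs come from mitochondrial DNA, but all of its proteins are encoded in the nucleus, made in the cytosol and imported. Some have counterparts in bacterial ribosomes and others are found only in mitochondria, and neurons and glia depend on them for oxidative phosphorylation.

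By textbook assignment, 51 of the 78 proteins belong to the large subunit and 26 to the small one, 46 have bacterial counterparts and 31 do not. Mrps36 is left over: despite its symbol, its product is a subunit of the 2-oxoglutarate dehydrogenase complex. The S in a symbol is no sure guide either, since Mrps18a and Mrps30 encode large subunit proteins.

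The libraries held 434298 to 683381 reads. Marker genes were checked first. The 10 astrocyte markers summed to 22809.8 to 25369 RPM (reads in a library per 1000000 of its reads) in astrocyte cells, the 10 microglia markers to 11992 to 16054 in microglia cells and the 10 neuron markers to 5917 to 7358 in neuron cells. In sEVs the same lists summed to 11898 to 24136, 4582 to 8629.6 and 2877 to 3718 in astrocyte, microglia and neuron sEVs. Sox9 was at 0 in astrocyte sEVs and Cx3cr1 in microglia cells. Markers of other cell types were also read: astrocyte markers summed to 2755 to 3845 in neuron sEVs and 2921 to 3252 in neuron cells, and the 8 oligodendrocyte lineage markers to 1950.3 to 3067 in astrocyte sEVs and 4198 to 9084 in astrocyte cells. Their part in the differences below was not tested. All sEV libraries were sequenced in 1 pool and all cell libraries in another, so fraction and sequencing pool cannot be told apart. Levels of single genes are CPM, the same unit on a library size scaled by the TMM method, so RPM and CPM are shares of a library and not amounts per vesicle or per cell.

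Mitoribosomal protein transcripts took a larger share of neuron sEV and microglia sEV libraries than of the cells that released them. Their summed reads were 7345, 6891 and 7883 RPM in neuron sEVs, against 4559, 4748 and 4121 in neuron cells. In microglia sEVs they were 4979, 4205 and 3743 RPM, against 1987, 1784 and 1804 in microglia cells. In neither cell type did sEVs and cells overlap. Astrocyte sEVs had 6866, 4517 and 7187 RPM, against 4527, 5174 and 4120.3 in astrocyte cells, and here replicate 2 of the sEVs lay within the range of the cells. That overlap holds on library totals: scaled by TMM, the astrocyte sums were 5457, 4276 and 6120.4 CPM in sEVs, against 3709, 4069 and 3903 CPM in cells, without overlap. The means were 6189.9 ± 1458 and 4607 ± 531 in astrocyte sEVs and cells, 4309 ± 625 and 1858 ± 112 in microglia sEVs and cells, and 7373 ± 497 and 4476 ± 322 in neuron sEVs and cells (SD, n = 3 each).

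Large subunit transcripts, which are 51 of the 78, made up most of the sum. They summed to 5341 ± 255 RPM in neuron sEVs and 3011 ± 270.3 in neuron cells, and those of the small subunit to 1964 ± 239.7 and 1432 ± 59.7. Microglia cells had the lowest sums of the 6 groups in both subunits. In these bulk samples, fewer cells of a type and less RNA per cell cannot be told apart. Scaled by TMM, the sums were 4213 ± 176 in microglia sEVs and 2738 ± 93.9 in microglia cells, a smaller gap than on the library total.

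**Figure D1:**
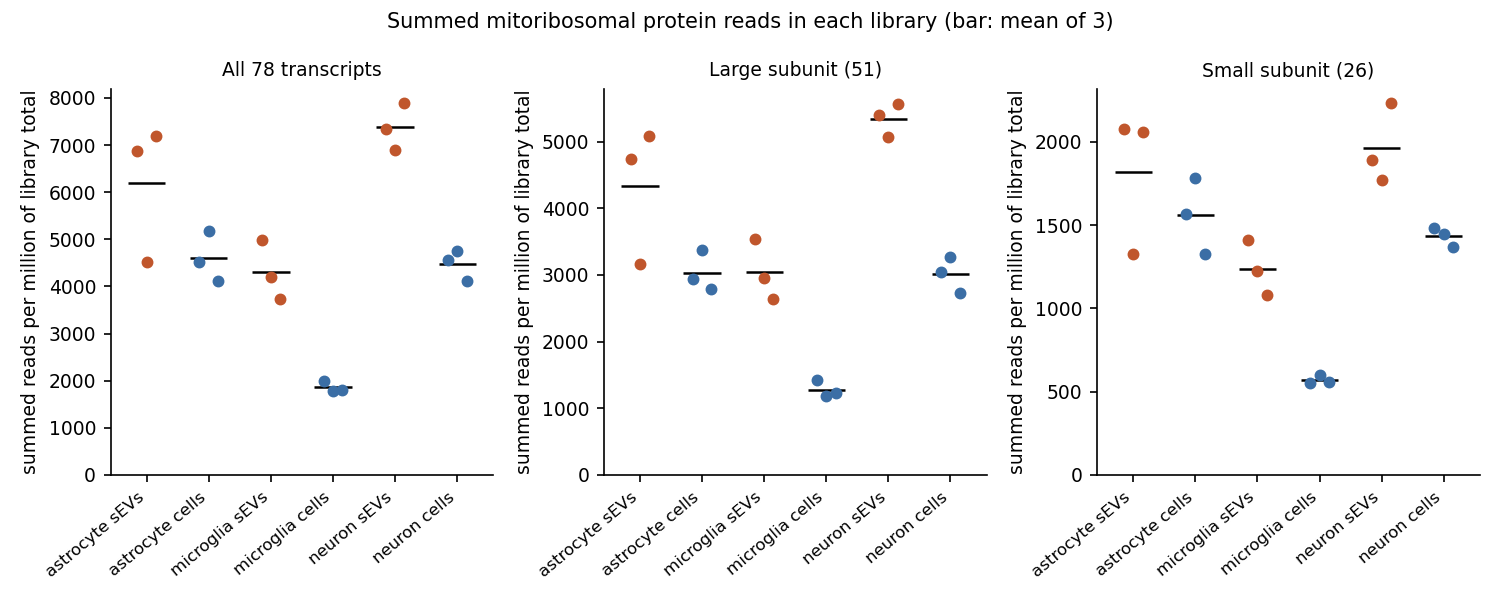
Summed reads of mitoribosomal protein transcripts in RPM (vertical axis) in each of 18 libraries, for all 78 transcripts and for each subunit. Points are libraries, orange for sEVs and blue for cells, and bars are means of 3. Neuron sEVs reach 7883 and microglia cells lie between 1784 and 1987 RPM.

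Gene by gene, differences between sEVs and cells leaned towards sEVs. Of the 78 transcripts, 76 passed the filter on low counts and were tested with edgeR together with all other genes, 8184 in all. In neuron sEVs 22 of 76 rose relative to neuron cells and 2 fell, at an adjusted p under 0.05. Those are 28.9% and 2.63% of the transcripts, beside 13.6% of all genes higher and 17.8% lower. In microglia sEVs 9 rose and 0 fell relative to microglia cells, or 11.8% higher, beside 2.7% of all genes higher and 9.18% lower. Without TMM scaling 24 rose and 0 fell in microglia sEVs, beside 8.14% of all genes higher and 6.34% lower. In astrocyte sEVs 5 rose and 0 fell relative to astrocyte cells, and 6.58% higher is no more than the 8.04% of all genes, while 12.2% of all genes were lower. The 2 transcripts left out are Mrpl52 and Mrps28, with 68 and 76 reads over all libraries.

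The median log2 fold change of the 76 transcripts, sEVs over cells, was 0.37 in astrocytes, 0.61 in microglia and 0.55 in neurons, beside medians over all genes of 0.00, 0.00 and -0.10. Without TMM scaling the median of all genes moved to 0.14 in microglia and to -0.47 in neurons, and that of the transcripts to 1.23 and 0.18, so that they stayed above all genes by 1.09 and 0.65. The log2 fold change was above 0 in all 3 cell types for 40 of 76 transcripts, 52.6%, beside 20.7% of all genes. It was below 0 in all 3 for 6, or 7.89%, beside 24.9% of all genes. Across the 76 transcripts, Spearman's rho of the log2 fold changes was 0.58 between astrocytes and neurons, 0.53 between astrocytes and microglia and 0.35 between microglia and neurons. Over all genes it was 0.70, 0.42 and 0.37. Genes are not independent replicates, and the values of 1 cell type share its 6 libraries.

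**Figure D2:**
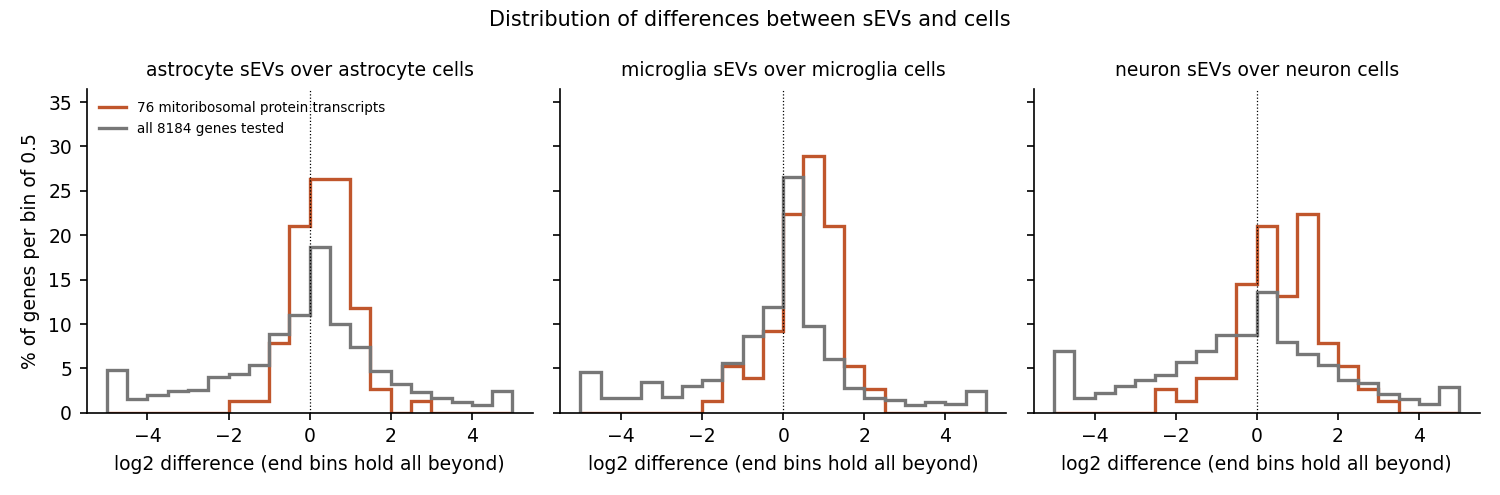
Distribution of log2 fold changes, sEVs over cells, in bins of 0.5 (horizontal axis) as a percentage of genes (vertical axis), for the 76 transcripts tested (orange) and all 8184 genes (grey) in each cell type. In the bin between 0.5 and 1 of microglia lie 28.9% of the transcripts and 9.75% of all genes.

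Averaged over the 3 cell types, 27 of 76 transcripts (35.5%) were higher in sEVs and 1 was lower, beside 14.5% and 19.5% of all genes. Of those higher, Mrpl54, Mrps16, Mrps11, Mrpl45 and Mrps14 lost this call in 16, 15, 14, 11 and 8 of 18 fits that leave out a library. Mrps23 lost it in 1 (edgeR adjusted p of all these lost calls 0.0504 to 0.135). The others higher on average kept it in every such fit. Large subunit transcripts gave 16 of 50 higher and small subunit transcripts 10 of 25. Of those with bacterial counterparts 18 of 45 were higher, and of the mitochondrion-specific ones 8 of 30, with medians of 0.63 and 0.36. The remaining transcript is Mrps36. The subunits and origins were not tested against each other.

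Mrpl30, Mrpl42 and Mrpl27 rose in the sEVs of all 3 cell types, 3.95% of the transcripts tested, beside 1.20% of all genes. All encode large subunit proteins: Mrpl30 that known as uL30m, Mrpl27 that known as bL27m, whose bacterial counterpart reaches into the peptidyl transferase centre, and Mrpl42 the mitochondrion-specific mL42.

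Mrpl30 had 599, 633 and 635 CPM in neuron sEVs, against 91.5, 90.3 and 78.8 CPM in neuron cells. It had 212, 194 and 255 CPM in astrocyte sEVs, against 25.8, 40.2 and 49.4 CPM in astrocyte cells. In microglia it had 130.5, 173 and 92.0 CPM in microglia sEVs, against 51.1, 28.3 and 68.7 CPM in microglia cells. No sEV library overlapped its cells, and neuron sEVs stood highest. The log2 fold change was 2.84 ± 0.32 in neurons (edgeR adjusted p = 5.68e-06), 2.51 ± 0.33 in astrocytes (edgeR adjusted p = 3.93e-05) and 1.40 ± 0.33 in microglia (edgeR adjusted p = 0.0104), each ± SE, or 7.14-, 5.70- and 2.64-fold.

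Mrpl42 had 917, 945 and 951 CPM in neuron sEVs, against 126, 141 and 129.6 CPM in neuron cells. In microglia it had 221, 167 and 141 CPM in microglia sEVs, against 76.6, 48.1 and 36.6 CPM in microglia cells. In astrocytes it had 264, 165 and 327 CPM in astrocyte sEVs, against 80.3, 115 and 136 CPM in astrocyte cells. The 3 neuron sEV libraries lay close together and far above every other library. Its log2 fold change was 2.82 ± 0.31 in neurons (edgeR adjusted p = 4.64e-06), 1.73 ± 0.33 in microglia (edgeR adjusted p = 0.00225) and 1.19 ± 0.30 in astrocytes (edgeR adjusted p = 0.00945). The call in astrocytes was lost without astrocyte cells replicate 1 (edgeR adjusted p = 0.0691) or without astrocyte sEVs replicate 3 (edgeR adjusted p = 0.0572).

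Mrpl27 differed by a similar factor in each cell type. It had 139, 97.0 and 123 CPM in neuron sEVs, against 42.6, 26.0 and 41.0 CPM in neuron cells. In astrocytes it had 101, 81.5 and 98.9 CPM in astrocyte sEVs, against 27.2, 30.5 and 36.7 CPM in astrocyte cells, and in microglia 114, 169 and 83.8 CPM in microglia sEVs, against 41.5, 59.5 and 45.8 CPM in microglia cells. Groups did not overlap, and the log2 fold changes were 1.71 ± 0.35, 1.57 ± 0.35 and 1.32 ± 0.35 in neurons, astrocytes and microglia, with edgeR adjusted p of 0.00145, 0.00400 and 0.0210. The microglia call was lost without microglia cells replicate 1 or 3 or without microglia sEVs replicate 2, at edgeR adjusted p of 0.0993, 0.0937 and 0.114.

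**Figure D3:**
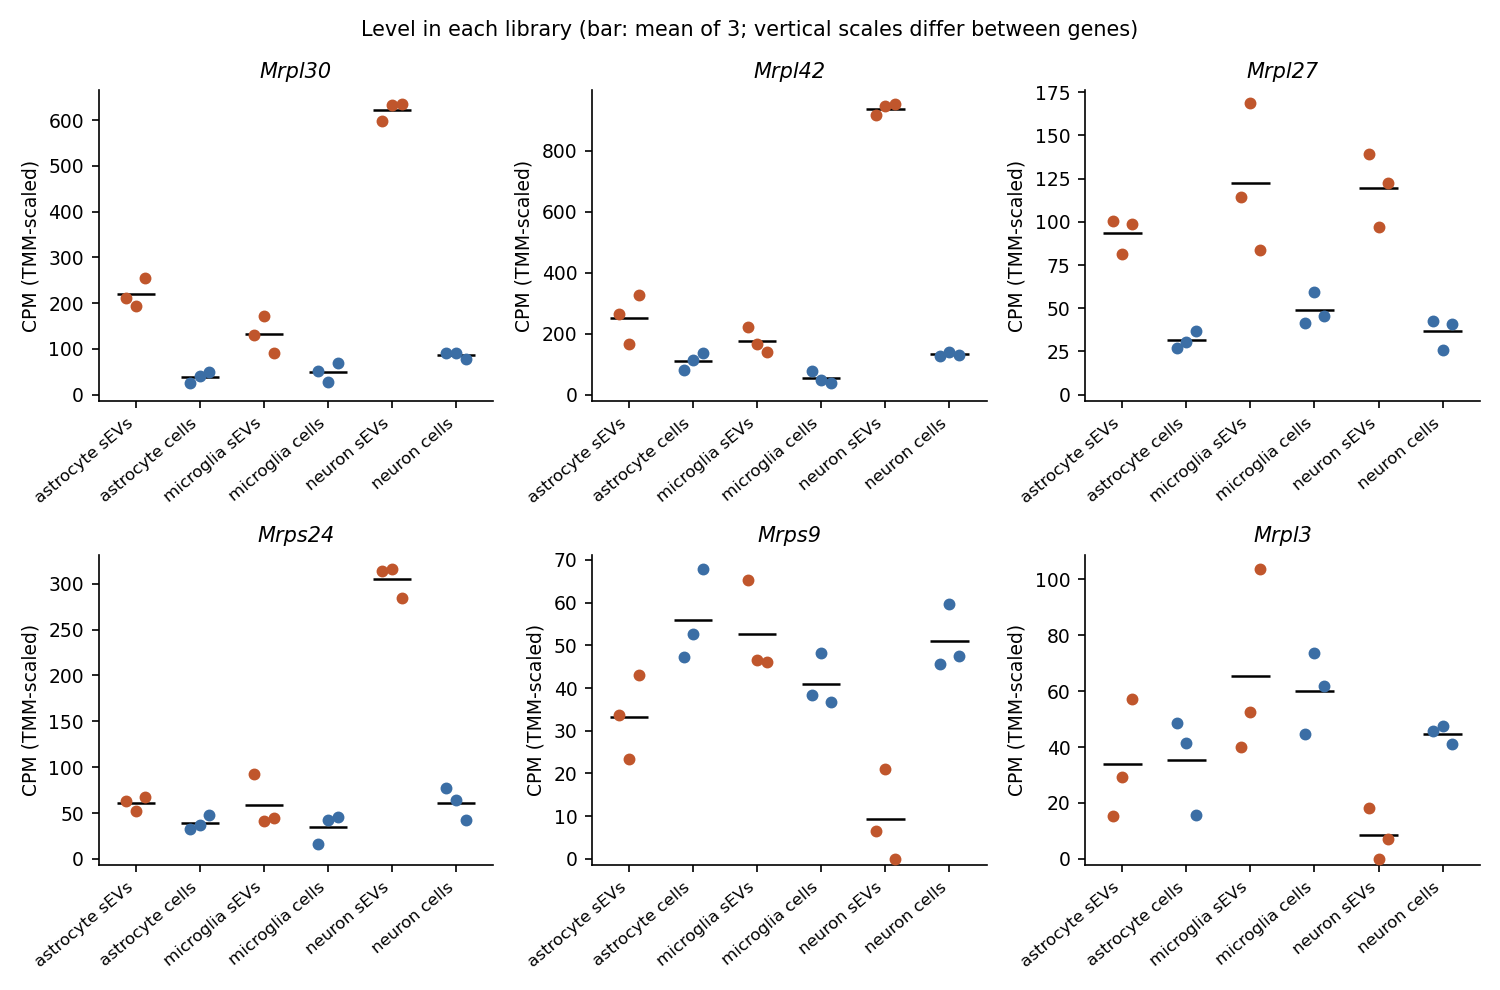
Level in CPM (vertical axis, a separate scale for each gene) of 6 transcripts in each of 18 libraries, grouped as sEVs (orange) and cells (blue) of each cell type, with bars at the mean of 3. Mrpl30 and Mrpl42 stand far above all other libraries in neuron sEVs, Mrpl27 is higher in sEVs in all 3 cell types, and Mrps9 and Mrpl3 are lowest in neuron sEVs.

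Nuclear genes for mitochondrial proteins are known to share promoter elements for the factors NRF1, YY1 and the ETS family, so the promoters of these 3 transcripts are shown, each 300 bases from 250 before to 50 after the start of the gene. They are RefSeq sequences of build GRCm38.p6, matched by symbol because the reads were mapped to GRCm39. Capitals mark the 1 match found in each: CCGGAAG, an ETS motif, in Mrpl27, the NRF1 consensus, read on the opposite strand, in Mrpl30, and AAGATGGCG, a YY1 motif, in Mrpl42.
Mrpl27, chr11:94653541-94653840, plus strand: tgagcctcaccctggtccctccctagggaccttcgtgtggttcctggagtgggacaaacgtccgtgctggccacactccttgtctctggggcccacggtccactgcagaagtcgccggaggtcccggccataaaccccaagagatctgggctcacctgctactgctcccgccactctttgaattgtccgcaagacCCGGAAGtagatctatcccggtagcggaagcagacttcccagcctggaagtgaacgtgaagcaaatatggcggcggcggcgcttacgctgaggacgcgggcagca
Mrpl30, chr1:37890227-37890526, plus strand: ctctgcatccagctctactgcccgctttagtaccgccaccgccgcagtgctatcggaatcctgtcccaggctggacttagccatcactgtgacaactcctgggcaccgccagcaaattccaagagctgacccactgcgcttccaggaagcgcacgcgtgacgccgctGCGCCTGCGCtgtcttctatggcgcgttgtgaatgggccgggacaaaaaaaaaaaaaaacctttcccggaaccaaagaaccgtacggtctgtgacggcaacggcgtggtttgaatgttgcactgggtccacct
Mrpl42, chr10:95501900-95502199, minus strand: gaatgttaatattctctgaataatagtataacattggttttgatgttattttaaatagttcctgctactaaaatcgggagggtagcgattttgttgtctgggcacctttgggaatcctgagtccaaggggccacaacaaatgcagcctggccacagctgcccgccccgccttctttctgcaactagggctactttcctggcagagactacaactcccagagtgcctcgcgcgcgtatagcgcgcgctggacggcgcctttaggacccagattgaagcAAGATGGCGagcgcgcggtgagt

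The 3 promoters thus hold 3 different motifs. A promoter was listed for 69 of the 78 genes, and both strands were searched, with no overlap between ETS and YY1 matches. The NRF1 motif was found in 13 of 69 (18.8%), the ETS motif in 26 (37.7%) and the YY1 motif in 8 (11.6%), and at least 1 of them in 41 (59.4%). Over all 27025 listed promoters the shares were 5.19%, 9.93%, 1.64% and 15.1%, and over the 6524 genes that were also tested here 12.6%, 22.2%, 4.03% and 34.5%. Of the transcripts higher in sEVs on average, 17 of 25 with a listed promoter held any of the motifs, and of the other tested ones 23 of 43. A match describes the letters in this window and is not a shown binding site.

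A further 7 transcripts rose in the sEVs of 2 cell types, 9.21% of those tested, beside 5.76% of all genes. Mrpl48 (mL48 of the large subunit) did so in neurons and astrocytes. It had 296, 128 and 201 CPM in astrocyte sEVs, against 67.4, 74.8 and 70.6 CPM in astrocyte cells, and 197, 264 and 169 CPM in neuron sEVs, against 63.1, 47.5 and 59.1 CPM in neuron cells. The log2 fold changes were 1.55 ± 0.36 and 1.89 ± 0.37 (edgeR adjusted p = 0.00512 and 0.000929), and in microglia 1.18 ± 0.38 did not pass (edgeR adjusted p = 0.0542). Mrps23 (mS23 of the small subunit) was the other one called in these cell types, with 74.9, 87.3 and 90.3 CPM in astrocyte sEVs, against 34.4, 34.6 and 43.8 CPM in astrocyte cells, and a log2 fold change of 1.16 ± 0.37 (edgeR adjusted p = 0.0336). In neurons it was 1.16 ± 0.37 (edgeR adjusted p = 0.0232), and in microglia -0.18 ± 0.40. The astrocyte call of Mrps23 was lost in 10 of 18 fits that leave out a library: any of astrocyte cells, any of microglia cells, neuron cells replicates 1 and 3, or astrocyte sEVs replicates 2 and 3 (edgeR adjusted p = 0.0511 to 0.126). Without astrocyte cells replicate 1, 3 transcripts in place of 5 were called in astrocytes.

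The other 5 rose in microglia and neurons. Mrps21 encodes the small subunit protein bS21m and had 79.7, 36.9 and 51.0 CPM in microglia sEVs, against 16, 11.3 and 11.4 CPM in microglia cells, and 121, 63.3 and 158 CPM in neuron sEVs, against 17.3, 13.8 and 32.8 CPM in neuron cells. Its log2 fold changes were 2.11 ± 0.54 and 2.41 ± 0.50 (edgeR adjusted p = 0.0166 and 0.00159). In astrocytes all 3 sEV libraries were also above all cell libraries, but 1.40 ± 0.50 did not pass (edgeR adjusted p = 0.0558). Mrps15, the small subunit protein uS15m, had 105, 111 and 87.1 CPM in microglia sEVs, against 35.1, 34.0 and 50.4 CPM in microglia cells, and 182, 205 and 199 CPM in neuron sEVs, against 50.5, 41.3 and 41.0 CPM in neuron cells. The neuron difference of 2.14 ± 0.34 (edgeR adjusted p = 0.000176) was 4.40-fold, and the microglia difference 1.33 ± 0.35 (edgeR adjusted p = 0.0189).

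Mrpl28, Mrpl33 and Mrpl55 complete this set and encode the large subunit proteins bL28m, bL33m and bL31m. Mrpl28, with 3212 reads in all, had 566, 656 and 631 CPM in neuron sEVs, against 233, 268 and 217 CPM in neuron cells, and 230.2, 215 and 158 CPM in microglia sEVs, against 140.5, 85.0 and 101 CPM in microglia cells. The differences were 1.37 ± 0.25 and 0.89 ± 0.25 (edgeR adjusted p = 0.000471 and 0.0296). The microglia call of Mrpl28 was lost in 7 of 18 fits that leave out a library: microglia cells replicates 2 and 3, microglia sEVs replicates 1 and 2, astrocyte cells replicates 1 and 2, and neuron cells replicate 1 (edgeR adjusted p = 0.0515 to 0.167). Mrpl33 had 48.9, 44.6 and 37.8 CPM in microglia sEVs, against 6.39, 8.50 and 11.4 CPM in microglia cells, a 4.83-fold difference (log2 2.27 ± 0.55, edgeR adjusted p = 0.0120) that rests on 27, 23 and 23 reads in sEVs, against 2, 3 and 5 in cells. Mrpl55 had 52.6, 62.1 and 54.2 CPM in microglia sEVs, against 12.8, 22.7 and 11.4 CPM in microglia cells, a log2 difference of 1.84 ± 0.42 (edgeR adjusted p = 0.00774). In neurons Mrpl33 and Mrpl55 differed by 1.40 ± 0.49 and 1.04 ± 0.36 (edgeR adjusted p = 0.0397 and 0.0376).

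**Figure D4:**
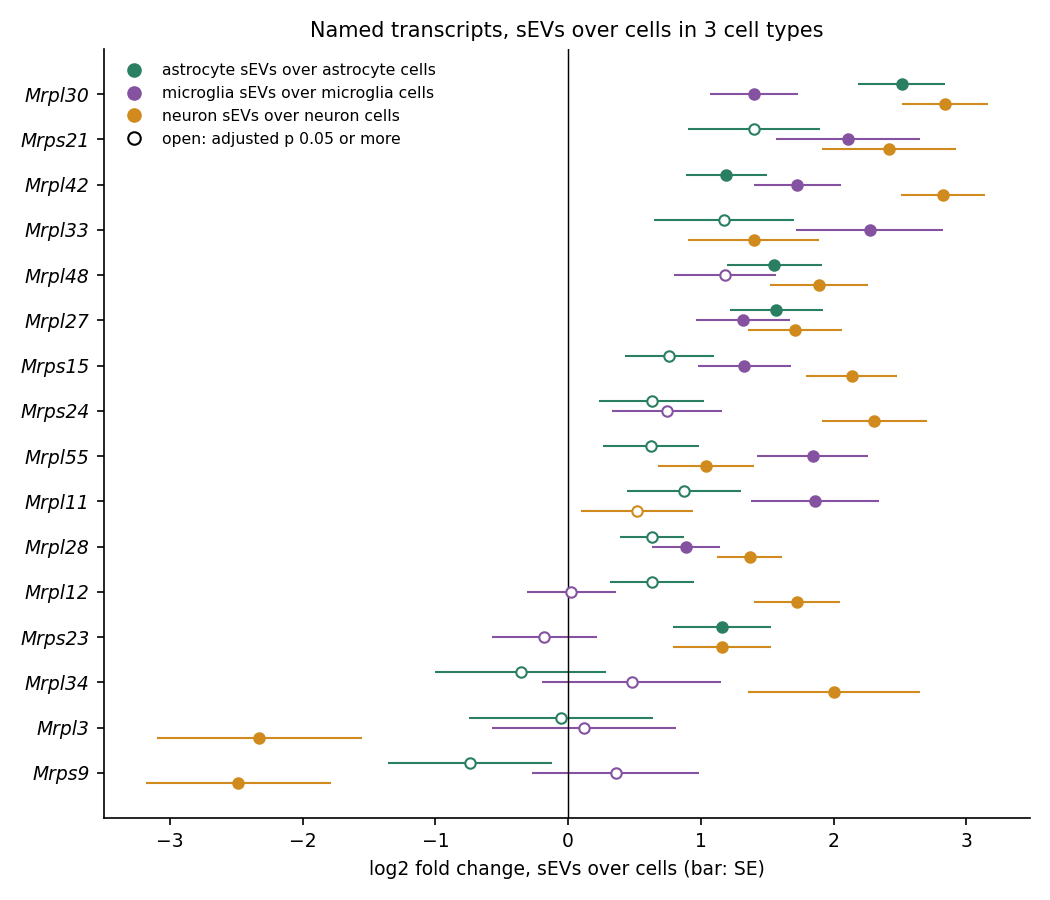
Log2 fold change, sEVs over cells, with its SE (horizontal axis) of 16 transcripts (rows, ordered by the mean over cell types) in astrocytes (green), microglia (purple) and neurons (orange). Filled points have an adjusted p under 0.05. Mrpl30, Mrpl42 and Mrpl27 are filled in all 3 cell types, and Mrps9 and Mrpl3 lie below 0 in neurons.

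Mrpl11 (uL11m at the base of the ribosomal stalk) was the 1 transcript called in microglia sEVs and not in the sEVs of the other cell types. It had 76.1, 54.4 and 36.2 CPM in microglia sEVs, against 12.8, 11.3 and 20.6 CPM in microglia cells (log2 1.86 ± 0.48, edgeR adjusted p = 0.0174). Astrocytes and neurons gave 0.87 ± 0.43 and 0.52 ± 0.42, which did not pass. Of the 9 microglia calls, 3 were left without microglia cells replicate 2, and 5 without microglia cells replicate 3 or microglia sEVs replicate 2. Beside those of Mrpl27 and Mrpl28, single removals from the microglia groups ended the calls of Mrpl33 (cells replicates 1 and 2), Mrps21 (cells replicates 2 and 3, sEVs replicate 1), Mrpl11 (cells replicates 1 and 2, sEVs replicate 1), Mrpl55 (cells replicate 3), Mrpl30 (cells replicate 2, sEVs replicate 2) and Mrps15 (cells replicates 1 and 2, sEVs replicate 2), with edgeR adjusted p between 0.0554 and 0.0994. Without the filter on low counts, edgeR called 2 transcripts in astrocyte sEVs, 3 in microglia sEVs and 13 in neuron sEVs. Over all genes it called 10.8%, 6.07% and 15.1% in either direction. In astrocytes and microglia these are larger shares than those of the transcripts. They pool both directions, and with the filter more genes were called lower than higher in these cell types. The shares higher alone were not compared without the filter. Leaving out the filter ended the calls of Mrpl27, Mrpl42 and Mrps23 in astrocytes (edgeR adjusted p = 0.0642, 0.0511 and 0.358), Mrpl33, Mrps21, Mrpl11, Mrps15, Mrpl27 and Mrpl28 in microglia (edgeR adjusted p = 0.0553 to 0.163) and 12 of 24 in neurons, which are Mrpl13, Mrpl18, Mrpl20, Mrpl33, Mrpl34, Mrpl54, Mrpl55, Mrpl58, Mrps10, Mrps23, Mrps33 and Mrps36 (edgeR adjusted p = 0.0522 to 0.341).

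Neuron sEVs held most of the calls, and 12 transcripts were called higher there and in no other cell type. A call higher in exactly 1 cell type was made for 17.1% of the 76 transcripts, beside 9.29% of all genes. Mrps24, the small subunit protein uS3m, had 313, 316 and 284 CPM in neuron sEVs, against 77.3, 64.3 and 42.7 CPM in neuron cells, a 4.95-fold difference (log2 2.31 ± 0.39, edgeR adjusted p = 0.000308). Mrpl12, whose product bL12m forms the stalk that recruits translation factors, had 245, 411 and 329 CPM in neuron sEVs, against 86.7, 101 and 110.0 CPM in neuron cells (log2 1.72 ± 0.32, edgeR adjusted p = 0.000647). Mrpl34, encoding bL34m, had 94.5, 63.3 and 142 CPM in neuron sEVs, against 20.5, 24.5 and 29.5 CPM in neuron cells (log2 2.00 ± 0.65, edgeR adjusted p = 0.0258). In all 3 the neuron sEV libraries were above all neuron cell libraries, and in astrocytes and microglia none of them passed. The Mrpl34 call was lost without any 1 of the 3 neuron cell libraries and without neuron sEVs replicate 1 or 3 (edgeR adjusted p = 0.0510 to 0.109), and with library sizes not scaled by TMM (edgeR adjusted p = 0.0667). The other 9 were Mrpl13, Mrpl18, Mrpl20, Mrpl54, Mrpl58, Mrps10, Mrps18a, Mrps33 and Mrps36, with log2 fold changes of 1.02 to 1.71. Mrpl58 encodes a peptidyl-tRNA hydrolase that frees stalled chains, and it sits in the large subunit. Without neuron cells replicate 3, 15 in place of 24 transcripts were called in neurons. The 9 calls lost there were those of Mrpl3, Mrpl34, Mrpl13, Mrpl33, Mrpl55, Mrps10, Mrps23, Mrps33 and Mrps36.

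Several neuron calls ended when 1 library was left out. Those of Mrpl33 and Mrps36 were each lost in 11 of 18 fits that leave out a library, both without any 1 neuron cell or astrocyte cell library, astrocyte sEVs replicate 2 or neuron sEVs replicate 1 or 3, Mrpl33 also without microglia cells replicate 1 or 2, and Mrps36 also without microglia cells replicate 3 or neuron sEVs replicate 2. That of Mrpl55 was lost in 10, without any 1 neuron cell or neuron sEV library, astrocyte cells replicate 2, microglia cells replicate 1 or astrocyte sEVs replicate 2 or 3. The Mrpl13 call was lost without any 1 neuron cell library or neuron sEVs replicate 1, and the Mrps23 call without neuron cells replicate 1 or 3, neuron sEVs replicate 3 or astrocyte sEVs replicate 2. Mrps10 and Mrps33 were not called without neuron cells replicate 1 or 3, Mrps10 also not without neuron sEVs replicate 2 and Mrps33 not without neuron sEVs replicate 3. Over these 7 the edgeR adjusted p of the lost calls was 0.0503 to 0.178. Without TMM scaling the same 7 and Mrpl34 were lost (edgeR adjusted p = 0.0667 to 0.153), and with full-splice matches alone Mrpl20 and Mrps10 (edgeR adjusted p = 0.539 and 0.261).

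Mrps9 and Mrpl3 fell in neuron sEVs. Mrps9 encodes uS9m, whose bacterial counterpart touches the tRNA in the P site, and Mrpl3 encodes uL3m, which lies near the peptidyl transferase centre. Mrps9 had 6.63, 21.1 and 0 CPM in neuron sEVs, against 45.7, 59.7 and 47.6 CPM in neuron cells, 5.59-fold lower (log2 -2.48 ± 0.69, edgeR adjusted p = 0.0119). Mrpl3 had 18.2, 0 and 7.11 CPM in neuron sEVs, against 45.7, 47.5 and 41.0 CPM in neuron cells, 5.02-fold lower (log2 -2.33 ± 0.77, edgeR adjusted p = 0.0292). These are few reads: Mrps9 had 4, 10 and 0 in the sEV libraries, against 29, 39 and 29 in the cells, and Mrpl3 had 11, 0 and 4, against 29, 31 and 25. In microglia and astrocytes the log2 fold changes were 0.36 ± 0.63 and -0.74 ± 0.62 for Mrps9 and 0.12 ± 0.69 and -0.05 ± 0.70 for Mrpl3, and none passed. Without neuron sEVs replicate 2 the log2 fold change of Mrps9 was -3.85. Without neuron sEVs replicate 1 that of Mrpl3 was -3.51, and its call was lost without any 1 neuron cell library or without neuron sEVs replicate 2 or 3 (edgeR adjusted p = 0.0549 to 0.0861).

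The 6 transcripts with a log2 fold change below 0 in all 3 cell types were Mrpl37, Mrpl38, Mrpl4, Mrps17, Mrps30 and Mrps5. Mrpl4, encoding uL4m, whose bacterial counterpart lines the exit tunnel, was the 1 transcript lower in sEVs on average, with a log2 fold change of -0.73 ± 0.26 (edgeR adjusted p = 0.0396). It had 36.5, 29.5 and 14.2 CPM in neuron sEVs, against 69.4, 55.1 and 47.6 CPM in neuron cells, 54.3, 44.6 and 30.1 CPM in astrocyte sEVs, against 57.3, 72.0 and 77.7 CPM in astrocyte cells, and 32.6, 34.9 and 29.6 CPM in microglia sEVs, against 51.1, 22.7 and 54.9 CPM in microglia cells. Without TMM scaling 30 transcripts were higher on average and 0 lower, beside 15.5% and 18.8% of all genes, so the call of Mrpl4 was lost. It was also lost in 9 of 18 fits that leave out a library: astrocyte cells replicates 2 and 3, microglia cells replicates 1 and 3, neuron cells replicates 1 and 2, and replicate 3 of the sEVs of each cell type (edgeR adjusted p = 0.0529 to 0.0877). With full-splice matches alone and without the filter on low counts it did not pass either (edgeR adjusted p = 0.0952 and 0.295). No single cell type passed, with -1.09 ± 0.46, -0.68 ± 0.44 and -0.41 ± 0.46 in that order. Mrpl37 (mL37) stayed close to 0, for example with 119, 142 and 152 CPM in astrocyte sEVs, against 130.4, 139.9 and 146 CPM in astrocyte cells.

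Whether the difference between sEVs and cells itself differed by cell type was tested with the interaction of cell type and fraction. It was called for 0 of 76 transcripts by edgeR, beside 3.96% of all genes, while 13 had an unadjusted p under 0.05 and DESeq2 called 8, beside 11.7% of all genes. Mrpl42 came closest (edgeR adjusted p = 0.0710), then Mrpl12, Mrps18a, Mrps24 and Mrpl30 (edgeR adjusted p = 0.0869, 0.0908, 0.132 and 0.147). The calls made in 1 cell type alone are therefore not shown to differ between cell types by this test.

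Among cells, microglia had more calls lower than higher relative to astrocytes and neurons, for these transcripts and for all genes. With TMM scaling the shares lower were smaller for the transcripts than for all genes. Of 76 transcripts 12 fell and 0 rose in microglia cells relative to astrocyte cells, 15.8% lower beside 20.3% of all genes, of which 15.1% were higher. Relative to neuron cells 13 fell and 0 rose, 17.1% beside 26.7% of all genes, of which 16.6% were higher. The medians were -0.45 and -0.43, beside -0.52 and -0.67 over all genes, which lie lower than those of the transcripts. Without TMM scaling 35 and 36 fell and 0 rose, beside 47.0% and 53.3% of all genes called in either direction. The shares of all genes include genes that rose, so the shares lower were not compared without this scaling. The medians were then -1.23 and -1.22, beside -1.32 and -1.45 over all genes. Both comparisons use the same microglia cell libraries.

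Mrpl55 was lowest in microglia cells, with 12.8, 22.7 and 11.4 CPM, against 35.8, 51.2 and 79.1 CPM in astrocyte cells and 71.0, 78.1 and 44.3 CPM in neuron cells. The log2 fold changes were -1.82 ± 0.42 and -2.04 ± 0.42 (edgeR adjusted p = 0.00259 and 0.000867). Mrps12, encoding uS12m of the decoding centre, had 25.5, 31.2 and 9.16 CPM in microglia cells, against 91.7, 83.1 and 67.8 CPM in astrocyte cells and 67.8, 68.9 and 90.3 CPM in neuron cells, 3.72- and 3.48-fold lower (edgeR adjusted p = 0.00649 and 0.00758). For both genes every microglia library was below every other cell library. Mrpl11 had 12.8, 11.3 and 20.6 CPM in microglia cells, against 63.1, 93.4 and 59.1 CPM in neuron cells (log2 -2.23 ± 0.48, edgeR adjusted p = 0.00133). Mrps7, the small subunit protein uS7m, had 70.2, 79.3 and 75.5 CPM in microglia cells, against 182, 247 and 133 CPM in astrocyte cells (log2 -1.32 ± 0.33, edgeR adjusted p = 0.00524), and Mrpl36, encoding bL36m, had 41.5, 42.5 and 27.5 CPM in microglia cells, against 112, 78.9 and 100.3 CPM in astrocyte cells (log2 -1.39 ± 0.39, edgeR adjusted p = 0.00974).

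Mrps35 (mS35) was at 0 in 2 of 3 microglia cell libraries, with 0, 0 and 4.58 CPM in microglia cells, against 25.2, 21.4 and 8.21 CPM in neuron cells. Its log2 fold change of -3.26 ± 1.26 (edgeR adjusted p = 0.0448) rests on 2 reads in microglia cells, moved to -6.45 without microglia cells replicate 3 and was not called in 11 of 18 fits that leave out a library or with full-splice matches alone (edgeR adjusted p = 0.153). The Mrpl36 call was lost without microglia cells replicate 3 (edgeR adjusted p = 0.0551) and with full-splice matches alone (edgeR adjusted p = 0.110). Without microglia cells replicate 2 or 3, 7 and 6 transcripts were called against astrocyte cells. Against neuron cells 7 were called without microglia cells replicate 2, and 6, 8 and 8 without neuron cells replicates 1, 2 and 3. Without the filter on low counts 5 were called in each comparison, beside 17% and 20.4% of all genes called in either direction. Mrpl36 and Mrps35 were not among the 5 (edgeR adjusted p = 0.0635 and 0.0818).

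Few transcripts separated neuron cells from astrocyte cells. Only Mrpl30 and Mrpl33 passed, 2 of 76 higher in neuron cells (2.63%) and 0 lower, beside 6.82% of all genes higher and 3.6% lower. Mrpl30 had 91.5, 90.3 and 78.8 CPM in neuron cells, against 25.8, 40.2 and 49.4 CPM in astrocyte cells (log2 1.17 ± 0.33, edgeR adjusted p = 0.0287). Mrpl33 had 26.8, 18.4 and 34.5 CPM in neuron cells, against 7.17, 11.1 and 5.65 CPM in astrocyte cells (log2 1.71 ± 0.53, edgeR adjusted p = 0.0468). The Mrpl30 call was lost without astrocyte cells replicate 1 or 2 or any 1 neuron cell library, and that of Mrpl33 in 14 of 18 fits that leave out a library, without TMM scaling and with the replicate number as a block (edgeR adjusted p = 0.0877). Without the filter on low counts neither passed (edgeR adjusted p = 0.151 and 0.412).

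Among sEVs microglia against neurons had the most calls, over all genes (4252 of 8184) and among these transcripts (31 of 76). In microglia sEVs 25 of 76 transcripts fell and 6 rose relative to neuron sEVs, or 32.9% and 7.89%, beside 32.0% and 19.9% of all genes. The share that fell was thus close to that of all genes, and the share that rose was smaller. The median was -0.78, beside -0.65 over all genes. Without TMM scaling 18 fell and 8 rose, beside 30.5% and 21.2% of all genes. Mrps26, the small subunit protein mS26, had 12.7, 5.82 and 14.8 CPM in microglia sEVs, against 118, 99.2 and 116 CPM in neuron sEVs, 9.73-fold lower (log2 -3.28 ± 0.48, edgeR adjusted p = 2.83e-05). Mrpl57 (mL63) and Mrpl10 (uL10m, which anchors the stalk) were 6.31- and 5.70-fold lower (edgeR adjusted p = 0.0150 and 0.0132). The Mrpl57 call was lost without microglia sEVs replicate 2 (edgeR adjusted p = 0.0549). The log2 fold change of Mrpl10 was -2.51 ± 0.78 with all libraries and -3.20 without microglia sEVs replicate 3. Mrps35 was called too (log2 -2.72 ± 1.11, edgeR adjusted p = 0.0494), but in 16 of 18 fits that leave out a library it was not, and with full-splice matches alone, without TMM scaling and without the filter on low counts the edgeR adjusted p was 0.579, 0.0503 and 0.118. Its log2 fold change was -6.79 without microglia sEVs replicate 3.

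The 6 transcripts higher in microglia sEVs than in neuron sEVs were Mrpl1, Mrpl3, Mrpl35, Mrpl39, Mrpl46 and Mrps9. The call of Mrpl35 was lost without replicate 2 of microglia sEVs or of neuron sEVs (edgeR adjusted p = 0.0511 and 0.0818), and that of Mrpl39 without microglia sEVs replicate 1 or 2, without neuron sEVs replicate 2 or 3 (edgeR adjusted p = 0.0619 to 0.105) or without the filter on low counts (edgeR adjusted p = 0.0970). The log2 fold change of Mrpl39 was 1.78 with all libraries and 2.99 without neuron sEVs replicate 1. Mrpl46 encodes mL46 of the large subunit and had 208, 159 and 112 CPM in microglia sEVs, against 41.5, 10.5 and 32.0 CPM in neuron sEVs, 5.60-fold higher (log2 2.49 ± 0.49, edgeR adjusted p = 0.000498). Mrpl1, encoding uL1m of the mobile stalk beside the exit site of tRNA, had 23.6, 48.5 and 69.0 CPM in microglia sEVs, against 4.98, 6.33 and 0 CPM in neuron sEVs (log2 3.59 ± 0.95, edgeR adjusted p = 0.00451). Mrpl3 and Mrps9, lower in neuron sEVs than in neuron cells, were 7.33- and 5.77-fold higher in microglia sEVs (edgeR adjusted p = 0.00539 and 0.00606). The log2 fold change was 4.03 for Mrpl3 without neuron sEVs replicate 1, against 2.87 with all libraries, and for Mrps9 3.87 without neuron sEVs replicate 2 and 1.92 without replicate 3, against 2.53.

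In microglia sEVs 12 transcripts fell and 1 rose relative to astrocyte sEVs, 15.8% and 1.32%, beside 25.7% and 16% of all genes. The 1 that rose was again Mrpl46, with 208, 159 and 112 CPM in microglia sEVs, against 69.8, 23.3 and 58.8 CPM in astrocyte sEVs (log2 1.64 ± 0.47, edgeR adjusted p = 0.0102), and the 2 comparisons share the microglia sEV libraries. Mrps26 had 78.8, 25.2 and 40.1 CPM in astrocyte sEVs and was 4.26-fold lower in microglia sEVs (edgeR adjusted p = 0.00210). Mrps27, an RNA-binding protein of the small subunit, had 36.2, 25.2 and 44.4 CPM in microglia sEVs, against 65.9, 175 and 98.9 CPM in astrocyte sEVs (log2 -1.66 ± 0.43, edgeR adjusted p = 0.00539), a call lost without astrocyte sEVs replicate 2 (edgeR adjusted p = 0.0577). Mrpl9 (bL9m) and Mrpl10 each had 1 high astrocyte library: Mrpl9 had 14.5, 7.76 and 0 CPM in microglia sEVs, against 114, 21.3 and 35.8 CPM in astrocyte sEVs, and Mrpl10 had 12.7, 0 and 18.1 CPM in microglia sEVs, against 31.0, 95.1 and 50.2 CPM in astrocyte sEVs. Their log2 fold changes were -2.93 ± 0.92 and -2.46 ± 0.78 (edgeR adjusted p = 0.0171 and 0.0184). Mrpl9 was not called without astrocyte sEVs replicate 1 (log2 -1.95, edgeR adjusted p = 0.113), and Mrpl10 not without astrocyte sEVs replicate 2 (log2 -1.82, edgeR adjusted p = 0.0954). Leaving out microglia sEVs replicate 1 or 3 moved Mrpl9 to -3.87 and -2.34, and leaving out replicate 3 moved Mrpl10 to -3.14.

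Neuron sEVs stood above astrocyte sEVs in 11 of 76 transcripts (14.5%) and below in 0, beside 9.05% and 5.28% of all genes. Without TMM scaling 7 were higher and 5 lower, beside 6.81% and 9.79% of all genes, and the median of the 76 was 0.25 with the scaling and -0.13 without it, beside 0.00 and -0.25 over all genes. Mrps24 had 313, 316 and 284 CPM in neuron sEVs, against 63.3, 52.4 and 67.4 CPM in astrocyte sEVs (log2 2.31 ± 0.39, edgeR adjusted p = 0.000762). Mrpl42 was 3.72-fold higher in neuron sEVs (edgeR adjusted p = 0.000439), Mrpl33 3.82-fold (edgeR adjusted p = 0.0158) and Mrpl34 4.45-fold (edgeR adjusted p = 0.0339). The Mrpl34 call was lost without TMM scaling and without neuron cells replicate 1, astrocyte sEVs replicate 1 or 2 or neuron sEVs replicate 1 or 3 (edgeR adjusted p = 0.0505 to 0.122). The Mrpl33 call was lost without astrocyte sEVs replicate 2 or neuron sEVs replicate 1 (edgeR adjusted p = 0.0559 and 0.0767). Both were also lost without the filter on low counts (edgeR adjusted p = 0.0649 and 0.182).

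In the count table each long read is assigned to an isoform. Of the reads of these transcripts, 94.1% matched the full chain of splice junctions of an annotated transcript (full-splice match), spread over 162 of the 498 isoforms. In neuron sEVs the share was 90.3% to 93.4%, against 94.7% to 94.8% in neuron cells. In microglia sEVs it was 94.9% to 95.5%, against 96.8% to 98.1% in microglia cells. In astrocyte sEVs it was 93.4% to 94.6%, against 94.9% to 95.3% in astrocyte cells. In each cell type every sEV library was thus below every cell library. In astrocyte sEVs replicate 3, 75 of the reads outside full-splice matches belonged to 1 isoform of Mrpl36. Most other libraries held their Mrpl36 reads as full-splice matches, so the gap in astrocytes leans on this assignment. The share over all genes was lower in every library, for example 73.7% to 79.7% in neuron sEVs and 84.3% to 87.1% in neuron cells. Over all genes, too, every sEV library was below every cell library of its type, so this is not particular to these transcripts. In 63 of 78 transcripts at least 90% of reads were full-splice matches.

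The transcripts that rose in all 3 cell types were each dominated by 1 isoform. Mrpl30 was mostly 1 full-splice match whose ends differ from the annotated ones, 91.8% of its reads in neuron sEVs and 81.2% in neuron cells, 85.1% in astrocyte sEVs and 76.8% in astrocyte cells, and 71.4% in microglia sEVs and 89.3% in microglia cells. Mrpl42 was 95.9% 1 full-splice match with another 3′ end in neuron sEVs and 94.8% in neuron cells. Mrpl27 was mainly its reference isoform, 79.4% in neuron sEVs and 92.8% in neuron cells. Mrpl48 was more mixed. Its leading isoform made up 46.9% of reads in neuron sEVs and 78.5% in neuron cells, 56.3% in astrocyte sEVs and 86.8% in astrocyte cells. A form with both ends changed had 48, 14 and 15 reads in astrocyte sEVs, against 2, 0 and 0 in astrocyte cells, and 22, 39 and 18 in neuron sEVs, against 6, 0 and 0 in neuron cells. Isoform shares were not tested.

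Among transcripts with 100 reads or more, the 5 with the smallest share of full-splice matches were Mrpl33, Mrps10, Mrpl10, Mrps27 and Mrps35. Mrpl33 had 1.64%, because 291 of its 305 reads belong to 1 isoform with an alternative 5′ splice site that is absent from the annotation by its category. That isoform had 55, 22 and 41 reads in neuron sEVs, against 15, 9 and 18 in neuron cells. Mrps10 (uS10m) had 73.7%, and its 2 leading isoforms, both reference matches, never occurred together: 11 libraries had the first only and 7 the second only. Mrpl10, Mrps27 and Mrps35 had 75.1%, 77.4% and 77.8%. In Mrps35, an isoform with a partly retained intron had 13, 10 and 0 reads in neuron sEVs, against 0, 0 and 3 in neuron cells, while the leading full-splice match had 0, 0 and 13 reads in neuron sEVs, against 16, 14 and 2 in neuron cells. No neuron sEV library held reads of both, so the assigned isoform changed between libraries of the same group. Why it changed was not tested.

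For Mrpl23 and Mrpl53 the gene label itself alternated between libraries. Reads under the pseudogene label Mrpl23-ps1 occurred in 8 libraries, 142 in all. Of the 18 libraries 10 had reads under Mrpl23 only, 5 under the pseudogene only and 3 under both. Mrpl53 was at 0 in neuron sEVs replicate 3 and neuron cells replicate 2, the 2 libraries in which read-through labels joining it with its neighbour Ccdc142 held 38 and 24 reads.

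Added together, the labels left no neuron library at 0. Mrpl23 (uL23m, near the exit tunnel) had 143, 33.8 and 132 CPM in neuron sEVs, against 30.0, 0 and 0 CPM in neuron cells, under its own label. With the pseudogene label it had 143, 75.9 and 132 CPM in neuron sEVs, against 30.0, 35.2 and 34.5 CPM in neuron cells. The log2 fold change was 3.34 ± 1.57 (edgeR adjusted p = 0.116) under its own label and 1.81 ± 0.47 (edgeR adjusted p = 0.00755) with both, a choice made after seeing the data. Mrpl53 (mL53) with its read-through labels had 71.3, 71.7 and 67.5 CPM in neuron sEVs, against 33.1, 36.7 and 36.1 CPM in neuron cells, and a log2 fold change of 0.99 ± 0.44 (edgeR adjusted p = 0.0997). Averaged over the 3 cell types, both were then higher in sEVs, at 1.23 ± 0.28 (edgeR adjusted p = 0.00216) and 0.77 ± 0.26 (edgeR adjusted p = 0.0302). Under their own labels the average was 1.55 ± 0.89 (edgeR adjusted p = 0.208) and 0.79 ± 0.61 (edgeR adjusted p = 0.388). The smallest value above 0 in the table is 2, so a 0 can hide single reads of an isoform.

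**Figure D5:**
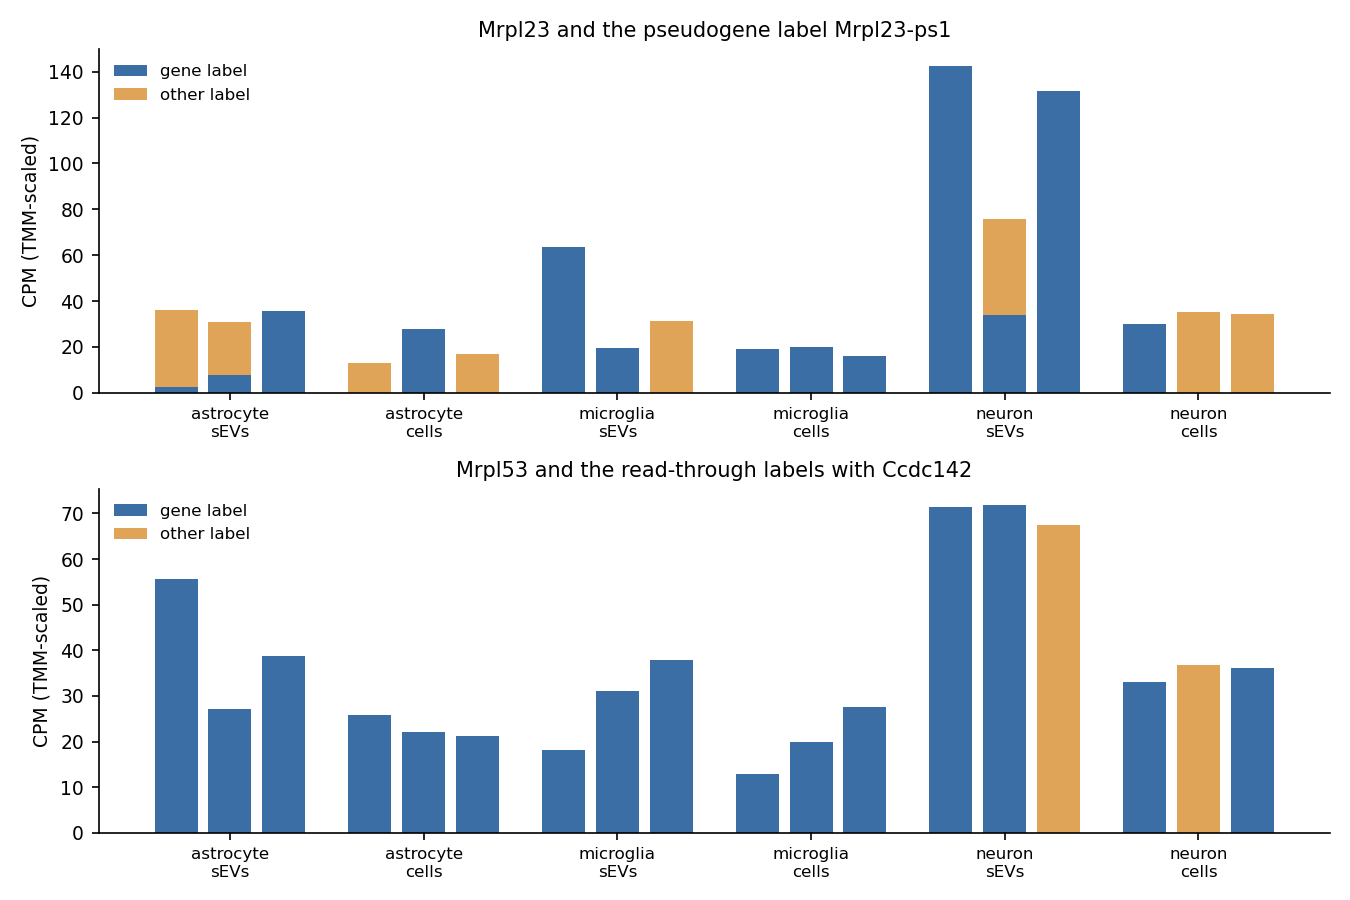
CPM (vertical axis) of Mrpl23 and Mrpl53 in each of 18 libraries, 3 bars for each group, with reads under the gene's own label in blue and reads under the pseudogene or read-through label in orange stacked on them. Mrpl53 has 1 all-orange bar among neuron sEVs and 1 among neuron cells, which stand near the blue bars of their groups. For Mrpl23, neuron sEVs replicate 2 stacks to 75.9 CPM, lower than the 143 and 132 CPM of the other bars of neuron sEVs.

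Other parts of mitochondrial protein synthesis gave other counts. The rRNA of the large mitoribosomal subunit, mt-Rnr2, had 362 ± 236 CPM in sEVs and 2630.2 ± 1344 CPM in cells of astrocytes (SD, n = 3 each), and fell in the sEVs of all 3 cell types, by log2 -2.30 ± 0.63 (edgeR adjusted p = 0.0109) in neurons, -3.64 ± 0.68 (edgeR adjusted p = 0.00198) in microglia and -2.86 ± 0.65 (edgeR adjusted p = 0.00441) in astrocytes. The rRNA of the small subunit, mt-Rnr1, did not pass, with log2 -1.16 ± 1.00 (edgeR adjusted p = 0.404) in neurons, -2.09 ± 1.51 (edgeR adjusted p = 0.434) in microglia, -1.84 ± 1.13 (edgeR adjusted p = 0.279) in astrocytes and -1.70 ± 0.71 (edgeR adjusted p = 0.0756) on average. Over all genes 14.5% were higher and 19.5% lower on average. On average over cell types 7 of 9 tested mitochondrially encoded mRNAs were lower in sEVs (77.8%) and 0 higher, with a median log2 fold change of -4.09. Of 22 tested assembly and rRNA maturation factors 1 was higher and 3 lower (4.55% and 13.6%), both below the shares of all genes: Rcc1l rose by 1.49 ± 0.38 (edgeR adjusted p = 0.00515), and Fastkd2 (log2 -1.20 ± 0.28 (edgeR adjusted p = 0.00258)), Mpv17l2 and Rbfa fell. Of 18 translation factors and mRNA regulators 3 were higher, 16.7%, namely Mtres1, Mtrfr and the ribosome recycling factor Mrrf, and 1 lower, 5.56%, the elongation factor Gfm1 at -1.98 ± 0.66 (edgeR adjusted p = 0.0261). Of 11 mitochondrial aminoacyl-tRNA synthetases, which charge the tRNAs, 0 were higher and 4 lower, 36.4%, namely Iars2, Nars2, Rars2 and Tars2. Of 5 mitoribosomal proteins whose symbols do not start with Mrp, Aurkaip1 was higher, at 0.61 ± 0.19 (edgeR adjusted p = 0.0220), and Ptcd3 was lower in neuron sEVs, at -2.03 ± 0.68 (edgeR adjusted p = 0.0314). Medians were -0.37 for assembly factors, -0.61 for translation factors, -1.31 for synthetases and 0.59 for the 5 proteins, beside -0.15 over all genes.

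More transcripts of the cytosolic ribosome, which translates nuclear mRNAs, were called. Of 74 tested cytosolic ribosomal protein transcripts 65 were higher in sEVs on average and 1 lower, with a median log2 fold change of 1.57, beside 27 of 76 and 0.47 for the mitoribosome. In neuron sEVs the counts were 65 of 74, with a median of 2.72, beside 22 of 76 and 0.55. In astrocyte sEVs 48 of 74 were higher and 1 lower, beside 5 of 76. In microglia sEVs they were 22 of 74 and 0.79, beside 9 of 76 and 0.61. The lists were not tested against each other.

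The 6 transcripts with the most reads were Mrpl28, Mrpl42, Mrpl30, Mrps18a, Mrpl37 and Mrpl12. Mrps18a, a large subunit protein (mL66), had 368, 346 and 341 CPM in neuron sEVs, against 103, 147 and 90.3 CPM in neuron cells (log2 1.63 ± 0.30, edgeR adjusted p = 0.000514), and 138, 128 and 104 CPM in microglia sEVs, against 102, 150.1 and 96.1 CPM in microglia cells. In microglia the log2 fold change of 0.08 ± 0.30 did not pass. At the other end, Mrps31 and Mrps5 (uS5m), both of the small subunit, averaged nearest to 10 reads a library. Mrps31 had 7, 3 and 2 reads in neuron sEVs, against 14, 8 and 6 in neuron cells, and Mrps5 had 3, 0 and 9 in neuron sEVs, against 23, 17 and 14 in neuron cells. Their log2 fold changes in neurons were -1.01 ± 0.77 and -1.97 ± 0.99, and neither was called in the sEVs of any cell type.

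Mrps36, the one whose product is not ribosomal, had 73.0, 59.1 and 90.7 CPM in neuron sEVs, against 33.1, 30.6 and 21.3 CPM in neuron cells (log2 1.38 ± 0.49, edgeR adjusted p = 0.0397). Mrpl52 and Mrps28, which were not tested, had few reads. Mrpl52 had 16, 4 and 15 reads in neuron sEVs, against 2, 2 and 0 in neuron cells, and Mrps28 had 6, 0 and 4 in neuron sEVs, against 0, 2 and 6 in neuron cells. In all, 53 of 76 tested transcripts (69.7%) rose in the sEVs of no cell type, beside 83.8% of all genes.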

How the data were processed

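Polyadenylated RNA of sEVs and cells from primary mouse astrocyte, microglia and neuron cultures was sequenced as PacBio long reads in 18 libraries, 3 for each of 6 groups. The authors deposited 1 table of unnormalised counts of reads, in which every isoform carries a gene label and a splice category. Per the submitters' processing notes, minimap2 and the build GRCm39 were used. The isoform caller, the annotation and all versions were not given in the sources used here. No value in the table lies between 0 and 2, so single reads are absent from it.

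Counts were summed over the isoforms of a gene label. Genes with low counts were removed with filterByExpr, which left 8184, and all 18 libraries were fitted in 1 edgeR 4.0.16 quasi-likelihood model (R 4.3.3) with a mean for each group and TMM scaling. The 11 comparisons were adjusted over all genes by the Benjamini-Hochberg method, with a threshold of 0.05. The SE of a log2 fold change was not given by the model. It was taken as the absolute log2 fold change divided by the square root of the quasi-likelihood F statistic. Depth was 434298 to 683381 reads per library. The procedure was also run on simulated counts. Their spread between libraries was set below the common dispersion of 0.31 estimated here, so that run does not show how the procedure performs on these data.

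Alternatives were DESeq2 1.42.0, library sizes without TMM, no filter on low counts, the replicate number as a block, full-splice matches only, merged labels (chosen after seeing the data) and leaving out each library. Transcripts and lists were chosen with earlier results of these data known. In comparisons of 2 groups, those named were called, did not overlap between the groups and averaged 10 reads or more in the higher group. Of these, up to 8 per direction were taken for sEVs against cells by fold change and 4 per direction for each pair of cell types. For the mean, the 8 called transcripts with the smallest p were taken. Added to these were the 6 with the most reads, the 2 nearest to 10 reads a library, those not tested and the 5 with the lowest share of full-splice matches. Other names, among them Mrps36, Mrpl4, Mrpl23, Mrpl53 and further members called in 1 or 2 cell types, were chosen after their values were seen. Promoters came from RefSeq, build GRCm38.p6, by gene symbol. Figures were drawn with matplotlib 3.10.9.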

Additional observations from a re-analysis of the deposited data

Results flagged for a closer look

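Reads of these genes also stand under labels that the comparisons did not use. The pseudogene label Mrpl23-ps1 held 142 reads, the read-through label Ccdc142_Mrpl53 held 38 and Mrpl53_Ccdc142 held 24. The read-through label Mrpl28_Axin1 held 6 reads, all in astrocyte cells replicate 2. Each of these totals is above the 3 reads that a count of 0 allows. Why the labels alternate was not tested.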

How the results depend on the processing

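None of the log2 fold changes of the named transcripts changed sign under any alternative run. They had been named because they were called and, outside the mean comparison, because their groups did not overlap. Kept signs and calls were favoured by that choice and are no independent support. Under DESeq2 58 of 58 kept their call, without the filter on low counts 42, without TMM 54, with the replicate block 57 and with full-splice matches 52, with 3 lost and the rest not tested. The number of transcripts called moved as follows. Each count is followed by the share of all genes called in either direction under the same setting. Without TMM it was 24 for microglia sEVs against microglia cells (14.5%), 2 for the interaction (8.11%), and 35, 1 and 36 for microglia against astrocyte, neuron against astrocyte and microglia against neuron cells (47.0%, 11% and 53.3%). DESeq2 called 12 in astrocyte sEVs (26.6%) and 14 in microglia sEVs (17%) against their cells, 8 in the interaction (11.7%), 20 for microglia against neuron cells (45.1%), and 22 each for microglia and for neuron sEVs against astrocyte sEVs (46.0% and 21.2%). As shares of 76, most of these counts lie below those of all genes, among them 12 and 20, which are 15.8% and 26.3%. Without TMM only the 24 lies above. With DESeq2 only the 14 in microglia sEVs and the 22 for neuron against astrocyte sEVs do. Without the filter, 2, 3 and 13 were called in astrocyte, microglia and neuron sEVs against their cells (10.8%, 6.07% and 15.1%), 5, 0 and 5 in the pairs of cells in the order above (17%, 6.23% and 20.4%), 6 each for microglia and neuron sEVs against astrocyte sEVs (21% and 7.76%), and 17 for microglia against neuron sEVs (25.3%). Among the counts without the filter only the 13 in neuron sEVs is a larger share of the transcripts than that of all genes. All these shares pool higher and lower calls, so they do not compare calls higher alone or calls lower alone. Full-splice matches left 1 for neuron against astrocyte cells (7.74%). The cause of these moves was not tested.

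The replicate block also left 1 for neuron against astrocyte cells (8.44%), without Mrpl33. In neuron sEVs against neuron cells it ended the calls of Mrpl33 and Mrpl55 (edgeR adjusted p = 0.0622 and 0.0509) and no other of 24. The labels do not state whether libraries of one number share a culture. Deviations of sEV and cell libraries of the same number correlated at -0.08 to 0.08, none over 0.1, so the numbers were not used as pairs. In neurons the 3 same-number correlations were 0.05 to 0.06 and the others below 0, and every library correlated best with its own number, a hint from the data that was not found for all libraries of the other cell types. Leaving out 1 library gave 3 to 6 calls in astrocyte sEVs, 3 to 11 in microglia sEVs and 15 to 24 in neuron sEVs against their cells, 23 to 30 in their mean and 0 to 1 in the interaction. The 1 call of the interaction came without astrocyte sEVs replicate 3, microglia sEVs replicate 3 or neuron sEVs replicate 2. For cells the ranges were 6 to 15 (microglia against astrocyte), 0 to 2 (neuron against astrocyte) and 6 to 17 (microglia against neuron), and for sEVs, in that order, 11 to 16, 9 to 13 and 25 to 32.

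On TMM-scaled library sizes the summed values were 5285 in astrocyte sEVs and 3894 in astrocyte cells, 2738 in microglia cells, 8143 in neuron sEVs and 3819 in neuron cells, and with full-splice matches 6768 in neuron sEVs. With 1 library of the group left out they were 5691 to 7027 in astrocyte sEVs and 4324 to 4850 in astrocyte cells, 3974 to 4592 in microglia sEVs and 1794 to 1896 in microglia cells, and 7118 to 7614 in neuron sEVs and 4340 to 4654 in neuron cells.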
